A study of Homo sapiens with 8 samples.

Results

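The GALNT genes encode the UDP-GalNAc:polypeptide N-acetylgalactosaminyltransferases, the enzymes that start mucin-type O-glycans. In the Golgi each enzyme attaches a first N-acetylgalactosamine (GalNAc) sugar to a serine or threonine of a passing protein, and other enzymes then extend that sugar with galactose, branch it and cap it with sialic acid. The isoenzymes overlap in the peptides they accept, and some members prefer peptides that already carry a GalNAc, so the set of members a cell makes bears on which sites are glycosylated. In epithelial cancers, short unextended forms of these glycans are a long-known tumour antigen.

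The 10 genes described here, GALNT1, GALNT2, GALNT3, GALNT5, GALNT6, GALNT7, GALNT10, GALNT11, GALNT14 and GALNT15, were taken by symbol from the 58336 genes of the count table. They are 10 of the 20 human GALNT family genes looked up, and the other 10 are given for context. The members were chosen by a rule of names, with the measured differences between these groups of libraries already known, so the values in all 3 comparisons count as used in the choice. For that reason the members' own levels and fold changes are a description and carry no p-value.

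Poly(A) RNA was sequenced from 8 samples of SUM159, a long-used cell line from a human triple-negative breast cancer. The lung-recovered libraries (3) came from clone 1 of ITGB4-low SUM159 cells that had been injected into the tail vein of mice given bleomycin, a drug that injures the lung, through the trachea. After dissociation of those lungs and a night in culture, tumour cells were sorted by their tdTomato fluorescence. The ITGB4-low libraries (3) came from clone 1 grown in dishes, and the ITGB4-high libraries (2) came from dish-grown cells with high ITGB4, the integrin beta 4 chain. Every ITGB4-low library and every lung-recovered library is of 1 clone, so the ITGB4-low state and the clone cannot be told apart. The lung stay, the bleomycin, the overnight culture and the sort were also applied together, to the same libraries, and cannot be told apart. The labels call the replicates biological. Age, sex and strain of the mice, and the culture or animals behind each replicate, are not given there, so p-values measure only the spread between these libraries.

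Library totals ran from 20.41 to 27.22 M counts. Levels are CPM, a gene's counts per 1000000 counts of its library, after TMM scaling, which corrects for differences in library composition. ITGB4 itself stood at 375.5 to 406.9 CPM in lung-recovered cells, 5.294 to 9.133 CPM in ITGB4-low cells and 376.4 to 419.9 CPM in ITGB4-high cells, so the lung-recovered libraries did not carry low ITGB4 RNA when they were sequenced. Among markers of the line, PGR had 0 counts in all 8 libraries, and ESR1 reached at most 0.1169 CPM. ERBB2 averaged 67.34 CPM in lung-recovered, 66.39 CPM in ITGB4-low and 67.53 CPM in ITGB4-high cells. For VIM the means were 4377, 4561 and 4828 CPM in these groups. Markers of other lung cells were scarce. All of them are human genes, and the lungs were those of mice. The sums that follow therefore cannot show how many mouse lung cells came through the sort. The summed level of 7 lung epithelium genes was 0.7092 to 1.176 CPM in lung-recovered, 1.603 to 1.931 CPM in ITGB4-low and 0.7167 to 1.169 CPM in ITGB4-high libraries. SFTPA1, SCGB1A1 and FOXJ1 were at 0 in all of these. AGER averaged 0.787 CPM in lung-recovered, 0.7668 CPM in ITGB4-low and 0.9045 CPM in ITGB4-high cells. NKX2-1 averaged 0.06708 CPM in lung-recovered, 1.036 CPM in ITGB4-low and 0.01948 CPM in ITGB4-high cells. The summed level of 6 macrophage and myeloid genes was 1.008 to 1.513 CPM in lung-recovered, 1.569 to 1.7 CPM in ITGB4-low and 0.5281 to 0.5455 CPM in ITGB4-high libraries. LYZ was at 0 in lung-recovered and ITGB4-high libraries, and no myeloid gene was at 0 in the ITGB4-low group. PTPRC averaged 0.7809 CPM in lung-recovered and 0.8645 CPM in ITGB4-low cells and was at 0 in ITGB4-high libraries. For 6 endothelium genes the summed level was 2.745 to 3.404 CPM in lung-recovered, 3.594 to 5.627 CPM in ITGB4-low and 3.234 to 3.961 CPM in ITGB4-high libraries. Most of this sum was KDR, at 2.428 CPM in lung-recovered, 3.978 CPM in ITGB4-low and 3.386 CPM in ITGB4-high cells. CLDN5 was at 0 in all groups, VWF at 0 in lung-recovered and CDH5 at 0 in ITGB4-low libraries.

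Of the 10 members, 8 had enough counts to enter the statistical fit. GALNT2 had the highest RNA level in every group. GALNT15 and GALNT5 differed most between groups, and both stood highest in dish-grown ITGB4-low cells, lower in lung-recovered cells and lowest in ITGB4-high cells. GALNT10 and GALNT7 were also highest in ITGB4-low cells, and in lung-recovered cells their levels overlapped those of ITGB4-high cells. GALNT1 and GALNT11 had like levels in both groups of clone 1 cells and lower ones in ITGB4-high cells. GALNT14 varied least, and GALNT3 and GALNT6 were at the edge of detection throughout. In bulk RNA, fewer cells that use a gene and less RNA of it per cell cannot be told apart.

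The stretch of DNA around annotated starts of 3 members is shown here because these members had the largest fold change in a direction in at least 1 of the 3 comparisons. For GALNT14 and GALNT2 these changes were small. GALNT14 had the only fall between the dish-grown groups (-0.08, SE 0.06) and the largest rise in lung-recovered against ITGB4-low cells (0.18, SE 0.05). GALNT2 had the only fall in lung-recovered against ITGB4-high cells (-0.06, SE 0.05). The sequences are RefSeq promoters of GRCh38.p14, 250 bases before to 50 after the start, written 5′ to 3′ on the gene's strand. Capitals mark matches on either strand to 3 motifs, the AP-1 site TGANTCA, the ZEB E-box CACCTG and the GC box GGGCGG, none of which overlapped another here. GALNT14 has 2 such windows. These starts can differ from the gene bounds given with the levels. Those bounds begin at 31155202 for GALNT14 on its minus strand and at 230057990 for GALNT2, outside the windows shown. The windows are chr3:16174430-16174729 (plus strand) for GALNT15, chr2:31138391-31138690 and chr2:31129591-31129890 (both minus strand) for GALNT14, and chr1:230066988-230067287 (plus strand) for GALNT2.
GALNT15: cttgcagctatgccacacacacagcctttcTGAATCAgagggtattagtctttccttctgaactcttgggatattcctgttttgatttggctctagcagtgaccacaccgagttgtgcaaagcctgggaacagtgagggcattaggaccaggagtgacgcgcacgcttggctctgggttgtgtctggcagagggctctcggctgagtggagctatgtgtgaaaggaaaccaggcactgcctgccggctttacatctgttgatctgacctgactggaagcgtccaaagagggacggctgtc
GALNT14, chr2:31138391-31138690: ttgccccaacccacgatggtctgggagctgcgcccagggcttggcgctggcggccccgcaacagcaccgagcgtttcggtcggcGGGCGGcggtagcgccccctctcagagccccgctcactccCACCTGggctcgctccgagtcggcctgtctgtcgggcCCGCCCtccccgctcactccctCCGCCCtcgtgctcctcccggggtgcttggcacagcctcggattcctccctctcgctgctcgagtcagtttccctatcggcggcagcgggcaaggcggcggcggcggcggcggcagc
GALNT14, chr2:31129591-31129890: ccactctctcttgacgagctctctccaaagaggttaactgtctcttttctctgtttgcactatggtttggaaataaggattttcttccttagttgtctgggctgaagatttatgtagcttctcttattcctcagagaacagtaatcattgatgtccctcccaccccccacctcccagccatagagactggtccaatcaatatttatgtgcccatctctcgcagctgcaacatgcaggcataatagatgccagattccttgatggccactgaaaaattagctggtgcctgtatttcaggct
GALNT2: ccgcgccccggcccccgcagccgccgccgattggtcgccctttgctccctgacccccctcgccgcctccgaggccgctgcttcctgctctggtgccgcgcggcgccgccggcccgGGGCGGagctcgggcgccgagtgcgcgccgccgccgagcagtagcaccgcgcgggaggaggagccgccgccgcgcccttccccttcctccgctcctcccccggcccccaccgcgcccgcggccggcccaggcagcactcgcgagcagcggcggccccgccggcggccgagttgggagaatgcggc

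Promoter windows were found for 8 of the 10 members, 11 windows in all. That of GALNT11, at 152074787 to 152075086, lies inside the gene and away from the start of its bounds at 152025674. The AP-1 letters, with any base allowed at N, stood in 1 of the 11 windows, that of GALNT15, where the match begins 220 bases before the start. It reads TGAATCA, with A at N, so it is not a match to the narrower form TGA(C/G)TCA. Over 35116 human promoters of the same length 7.71% hold TGANTCA. ZEB E-box letters stood in 2 windows, once in a GALNT14 window, 126 bases before the start, and at 2 places in that of GALNT3, against 20.6% of all promoters. A GC box stood in 7 windows of 6 members, against 45.0% of all promoters. The GALNT15 window was 53.3% G and C with 8 CG pairs, and that of GALNT11 was 51.3% with 2 CG pairs. Of 3 GALNT1 windows, 2 had 86.0% with 62 CG pairs and 82.7% with 50, and the other had 51.7% with 9. The windows of GALNT2 and GALNT10 had 82.0% and 81.0%, each with 51 CG pairs, against a median over all promoters of 58.7% and 14 CG pairs. Both GALNT14 windows differed in this respect, with 73.7% and 35 CG pairs at chr2:31138391-31138690 and 45.0% and 2 CG pairs at chr2:31129591-31129890.

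**Figure D1:**
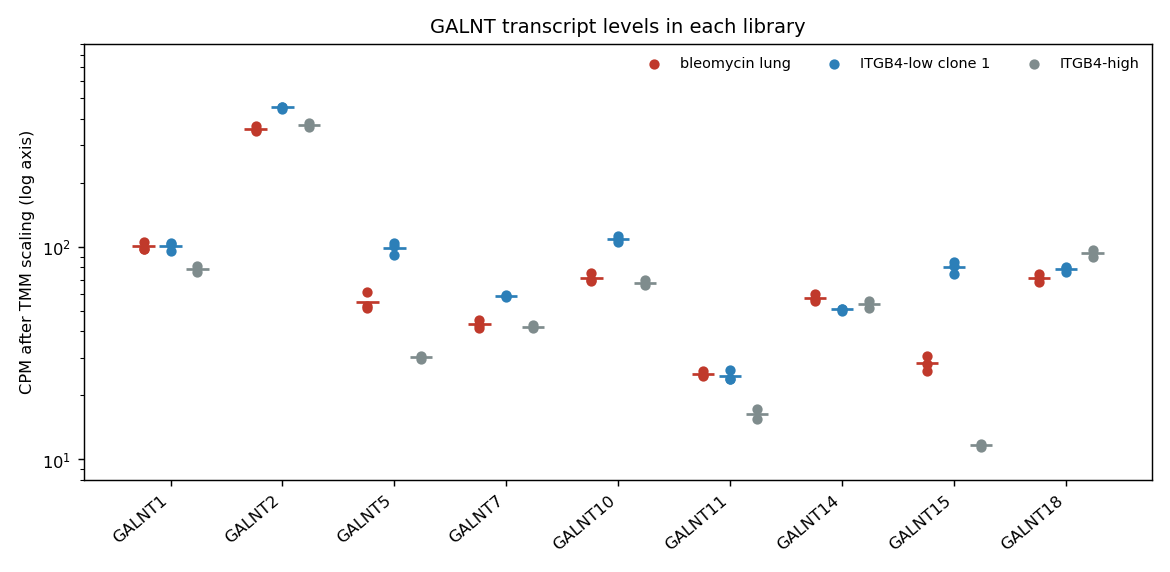
RNA level of the 8 GALNT members with enough counts, and of GALNT18, in each library, in CPM after TMM scaling on a log axis, with 1 point per library and a bar at the group mean. GALNT15 and GALNT5 separate all 3 groups (GALNT15 at 26.15 to 30.83 CPM in lung-recovered, 74.8 to 85.14 CPM in ITGB4-low and 11.5 to 11.88 CPM in ITGB4-high libraries), while GALNT14 lies between 50.03 and 60.1 CPM in all 8 libraries.

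GALNT1 and GALNT2 are the broadly expressed initiators of the family, and human GALNT2 is known for glycosylating proteins of lipid metabolism such as PLTP. GALNT2 (ENSG00000143641, hg38 chromosome 1, 230057990 to 230282124) had 356.3, 371.0 and 351.9 CPM in lung-recovered libraries, 456.2, 445.9 and 455.9 CPM in ITGB4-low libraries, and 382.2 and 366.8 CPM in ITGB4-high libraries. The ITGB4-low libraries stood above all others, and the other groups overlapped. Its log2 fold change was 0.27 (SE 0.05) for ITGB4-low against ITGB4-high, -0.33 (SE 0.04) for lung-recovered against ITGB4-low, and -0.06 (SE 0.05) for lung-recovered against ITGB4-high.

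For GALNT1 (ENSG00000141429, chromosome 18, 35581117 to 35711834) the values were 98.05, 105.1 and 98.13 CPM in lung-recovered, 103.2, 104.6 and 96.04 CPM in ITGB4-low, and 81.17 and 76.57 CPM in ITGB4-high libraries. Both groups of clone 1 overlapped and lay above the ITGB4-high libraries. The log2 fold change of GALNT1 was 0.36 (SE 0.05) between the dish-grown groups, -0.01 (SE 0.05) for lung-recovered against ITGB4-low, and 0.35 (SE 0.05) for lung-recovered against ITGB4-high.

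GALNT7 and GALNT10 are known as follow-up enzymes, which prefer peptides already carrying a GalNAc. GALNT10 (ENSG00000164574, chromosome 5, 154190730 to 154420984) had 69.57, 75.7 and 69.07 CPM in lung-recovered, 108.8, 112.4 and 105.9 CPM in ITGB4-low, and 69.48 and 66.44 CPM in ITGB4-high libraries. GALNT7 (ENSG00000109586, chromosome 4, 173168753 to 173323967) had 42.93, 45.11 and 41.43 CPM in lung-recovered, 59.01, 59.13 and 57.98 CPM in ITGB4-low, and 41.42 and 42.86 CPM in ITGB4-high libraries. For both genes all ITGB4-low libraries stood above all others, and lung-recovered and ITGB4-high libraries overlapped. The log2 fold change between the dish-grown groups was 0.68 (SE 0.05) for GALNT10 and 0.48 (SE 0.06) for GALNT7. Lung-recovered cells differed from ITGB4-low cells by -0.61 (SE 0.05) in GALNT10 and -0.45 (SE 0.05) in GALNT7, and from ITGB4-high cells by 0.07 (SE 0.05) and 0.03 (SE 0.06), all on the log2 scale. GALNT10 shares bases with MFAP3 on the same strand, which had 2464, 2207 and 1968 counts summed over the lung-recovered, ITGB4-low and ITGB4-high libraries, beside 5094, 7270 and 3547 counts of GALNT10. How the counting shared reads between these genes is not given in the sources used here. An antisense gene across GALNT7, AC105285.1, had 97 counts in lung-recovered, 123 in ITGB4-low and 80 in ITGB4-high libraries, beside 3078, 3917 and 2198 of GALNT7 in the same groups.

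GALNT15 showed the widest differences of the members. GALNT15 (ENSG00000131386, chromosome 3, 16174649 to 16231992) had 28.19, 26.15 and 30.83 CPM in lung-recovered libraries, 74.8, 81.54 and 85.14 CPM in ITGB4-low libraries, and 11.88 and 11.5 CPM in ITGB4-high libraries. No library of any group overlapped another group. Group means were 28.39 ± 2.348 CPM in lung-recovered cells (SD, n = 3), 80.49 ± 5.25 CPM in ITGB4-low cells (SD, n = 3) and 11.69 ± 0.2733 CPM in ITGB4-high cells (SD, n = 2). Its log2 fold change was 2.78 (SE 0.08) for ITGB4-low against ITGB4-high, -1.50 (SE 0.06) for lung-recovered against ITGB4-low and 1.28 (SE 0.09) for lung-recovered against ITGB4-high. Of all genes tested, 96.7%, 96.7% and 91.4% had a smaller change in these comparisons.

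GALNT5 (ENSG00000136542, chromosome 2, 157257598 to 157314211) kept the same order of groups. Its levels were 52.81, 61.33 and 51.74 CPM in lung-recovered, 104.6, 100.6 and 91.13 CPM in ITGB4-low, and 29.8 and 30.78 CPM in ITGB4-high libraries. Again the groups did not overlap. The log2 fold change of GALNT5 was 1.70 (SE 0.08), -0.84 (SE 0.06) and 0.87 (SE 0.08) in the comparisons as ordered for GALNT15, larger in size than that of 92.8%, 91.8% and 85.9% of the genes tested.

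GALNT11 is known from human and frog work to glycosylate NOTCH1, and it modifies the linkers between ligand-binding repeats of endocytic receptors. GALNT11 (ENSG00000178234, chromosome 7, 152025674 to 152122347) had 25.96, 24.63 and 24.89 CPM in lung-recovered, 26.23, 23.91 and 23.9 CPM in ITGB4-low, and 15.54 and 17.22 CPM in ITGB4-high libraries. As with GALNT1, both groups of clone 1 overlapped and both lay above ITGB4-high. The log2 fold changes of GALNT11 were 0.59 (SE 0.08) for ITGB4-low against ITGB4-high, 0.03 (SE 0.07) for lung-recovered against ITGB4-low and 0.62 (SE 0.08) for lung-recovered against ITGB4-high.

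GALNT14 is known for glycosylating the TRAIL death receptors encoded by TNFRSF10A and TNFRSF10B. GALNT14 (ENSG00000158089, chromosome 2, 30910467 to 31155202) had 55.71, 60.1 and 56.74 CPM in lung-recovered, 50.03, 51.25 and 51.02 CPM in ITGB4-low, and 55.56 and 51.63 CPM in ITGB4-high libraries. The ITGB4-low libraries were the lowest, and every lung-recovered library lay above every other one, by as little as 55.71 against 55.56 CPM. Its log2 fold change was -0.08 (SE 0.06) between the dish-grown groups, 0.18 (SE 0.05) for lung-recovered against ITGB4-low and 0.10 (SE 0.06) for lung-recovered against ITGB4-high.

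GALNT3, which protects the phosphate hormone FGF23 from cleavage, and its close relative GALNT6, known for acting on fibronectin and MUC1 in breast cancer, were barely measured. GALNT3 (ENSG00000115339, chromosome 2, 165747591 to 165794682) had 9 counts over the lung-recovered libraries, 7 over the ITGB4-low libraries and 0 over the ITGB4-high libraries. GALNT6 (ENSG00000139629, chromosome 12, 51351247 to 51392867) had 1 count over the lung-recovered, 6 over the ITGB4-low and 0 over the ITGB4-high libraries. SLC4A8, on the opposite strand across it, had 9 in lung-recovered, 21 in ITGB4-low and 11 in ITGB4-high libraries. A count of 0 over both ITGB4-high libraries allows a level of up to 0.05645 CPM (3 counts over the group), which covers counting error only. Both genes fell short of the filter on low counts, so no difference in them was estimated.

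**Figure D2:**
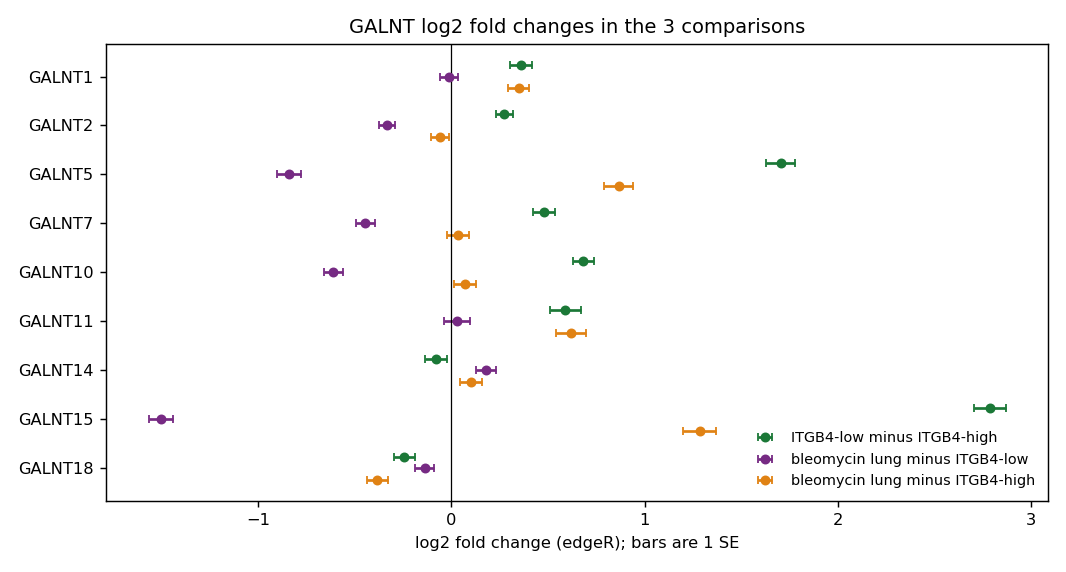
Log2 fold change of the 8 GALNT members with enough counts, and of GALNT18, in the 3 comparisons, from edgeR, with bars of 1 SE. GALNT15 and GALNT5 reach 2.78 and 1.70 in ITGB4-low against ITGB4-high cells, and -1.50 and -0.84 in lung-recovered against ITGB4-low cells.

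Counted by the fit over all 15220 genes at an adjusted p under 0.05, 7 of the 8 tested members were higher and 0 lower in ITGB4-low than in ITGB4-high cells, where 28.6% of all genes were called higher and 27.6% lower (56.2% called). The member not called was GALNT14. In lung-recovered against ITGB4-low cells 1 member (GALNT14) was higher and 5 were lower, where 14.7% of all genes were called higher and 15.4% lower (30.1% called), and GALNT1 and GALNT11 were not called. Without lung-recovered replicate 2, GALNT14 was not called either. Against ITGB4-high cells 4 members were higher in lung-recovered cells and 0 were lower, where 26.2% of all genes were called higher and 25.0% lower (51.2% called). The libraries of both groups did not overlap for 8, 6 and 5 of the 8 members in these comparisons, in the order just given, beside 68.7%, 43.3% and 66.8% of all genes. The median log2 fold change of the tested members was 0.53, -0.39 and 0.22 in these comparisons, beside 0.0, 0.0 and 0.01 over all genes. The members were chosen with these contrasts known, and the comparisons share groups of libraries, so nothing is read from these counts.

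Compared per length, the levels of the GALNT enzymes can be ranked against each other. In CPM per kb of annotated exon, GALNT2 averaged 46.46 ± 1.293 in lung-recovered (SD, n = 3), 58.46 ± 0.7554 in ITGB4-low (SD, n = 3) and 48.36 ± 1.404 in ITGB4-high libraries (SD, n = 2), the highest level in each. GALNT18 came next and then GALNT1, and their libraries overlapped in the lung-recovered group, where they averaged 19.73 and 19.59 CPM per kb. GALNT14 followed in lung-recovered and ITGB4-high cells, at 12.59 and 11.74 CPM per kb. In ITGB4-low cells the next places went to GALNT5 and GALNT15, at 14.49 and 13.39 CPM per kb with overlapping libraries, ahead of GALNT14 at 11.12. GALNT15 and GALNT11 were the lowest of the well-measured genes in ITGB4-high cells, at 1.944 and 1.975 CPM per kb, and they overlapped. The places below GALNT1 depend on the length used. With the longest transcript in place of all exons, GALNT14 took place 4 in all 3 groups, and GALNT15 took place 6 in ITGB4-low cells and 9 in both others.

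The summed level of all 20 family genes was 127.5 ± 4.249 CPM per kb in lung-recovered cells (SD, n = 3), 161.1 ± 1.208 in ITGB4-low cells (SD, n = 3) and 122.2 ± 3.868 in ITGB4-high cells (SD, n = 2). Lung-recovered libraries spanned 124.4 to 132.4, ITGB4-low libraries 159.9 to 162.3 and ITGB4-high libraries 119.5 to 124.9 CPM per kb, so only the ITGB4-low group stood clear of the others. GALNT2 made up 36.44%, 36.30% and 39.57% of this sum in lung-recovered, ITGB4-low and ITGB4-high cells. GALNT15 made up 3.712% in lung-recovered, 8.312% in ITGB4-low and 1.591% in ITGB4-high cells. For GALNT5 the shares were 6.352% in lung-recovered, 8.993% in ITGB4-low and 3.638% in ITGB4-high cells. GALNT14, whose own level hardly differed, took 9.876% of the sum in lung-recovered, 6.902% in ITGB4-low and 9.599% in ITGB4-high cells.

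**Figure D3:**
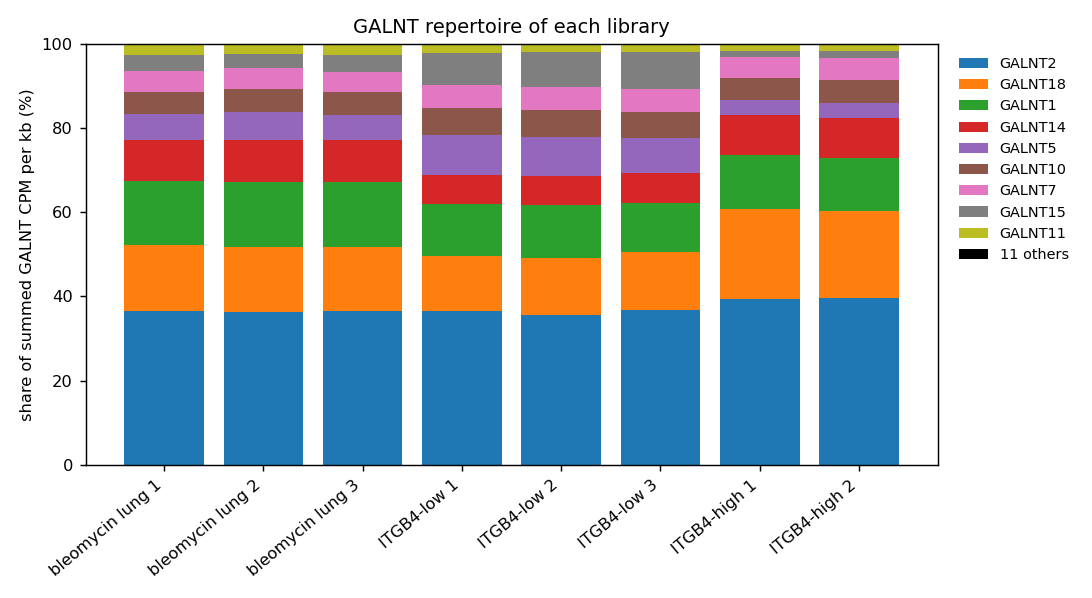
Share of each gene in the summed GALNT level (CPM per kb of exon) of each library, in percent. GALNT2 is the largest share in all 8 libraries, and the GALNT15 share is 7.724 to 8.857% in ITGB4-low libraries against 1.581 to 1.6% in ITGB4-high libraries.

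Among the 10 family genes outside the list, GALNT18 (ENSG00000110328) was the only one with enough counts to test. It had 71.75, 74.23 and 68.65 CPM in lung-recovered, 75.82, 80.7 and 79.54 CPM in ITGB4-low, and 96.64 and 89.7 CPM in ITGB4-high libraries, and these groups did not overlap. GALNT18 was lower in ITGB4-low than in ITGB4-high cells, at -0.24 on the log2 scale (SE 0.05, edgeR adjusted p = 0.000673). It was also lower in lung-recovered cells, at -0.14 (SE 0.05, edgeR adjusted p = 0.0392) against ITGB4-low and -0.38 (SE 0.05, edgeR adjusted p = 6.23e-06) against ITGB4-high cells. Its p against ITGB4-low cells was over the threshold in other fits, at 0.0728 with DESeq2, 0.0633 with no filter on low counts and 0.0677 with a replicate block, and at 0.104 to 0.187 without lung-recovered replicate 1 or 3 or ITGB4-low replicate 2 or 3. GALNT4, GALNT8, GALNT9, GALNT12, GALNT13 and GALNT16 reached at most 0.6314 CPM in any library, and GALNT17, GALNTL5 and GALNTL6 had 0 counts in all 8.

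Whether a member moved with its stretch of chromosome was described by the tested genes whose start lies within 5 Mb of its own. For GALNT15 the 47 neighbours had a median log2 fold change of -0.02 in ITGB4-low against ITGB4-high cells, 0.01 in lung-recovered against ITGB4-low cells and -0.08 in lung-recovered against ITGB4-high cells. In the first of these comparisons 0 of the 47 had a higher log2 fold change than GALNT15, and in each of the others 1 lay beyond it. GALNT5 also stood apart from its 23 neighbours, whose medians were 0.03, 0.06 and 0.24, with 2 beyond it in each comparison. The 31 neighbours of GALNT1 had medians of 0.39, -0.01 and 0.31, close to 0.36, -0.01 and 0.35 for GALNT1 itself. The 26 neighbours of GALNT7 had medians of 0.23, -0.14 and 0.12, beside 0.48, -0.45 and 0.03 for GALNT7. The 58 neighbours of GALNT11 had medians of 0.26, -0.06 and 0.25, beside 0.59, 0.03 and 0.62 for GALNT11. Over the 48 neighbours of GALNT10 the medians were 0.09, -0.08 and 0.02, and over the 69 of GALNT2 they were -0.08, 0.02 and -0.02. For the 69 neighbours of GALNT14 they were 0.18, -0.05 and 0.11. These medians depended on the window, which holds fewer genes at 2 Mb. There they were 0.42, -0.43 and 0.00 over 10 neighbours of GALNT7, -0.22, 0.06 and -0.17 over 9 of GALNT5, and -0.07, -0.04 and -0.05 over 8 of GALNT10. Within 2 Mb of GALNT14 the 18 neighbours had medians of 0.31, -0.11 and 0.04, and the 26 of GALNT11 had 0.36, -0.06 and 0.28. For GALNT1 the 18 had 0.36, -0.03 and 0.29, for GALNT2 the 34 had -0.01, -0.01 and 0.03, and for GALNT15 the 25 had -0.02, 0.03 and 0.04.

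**Figure D4:**
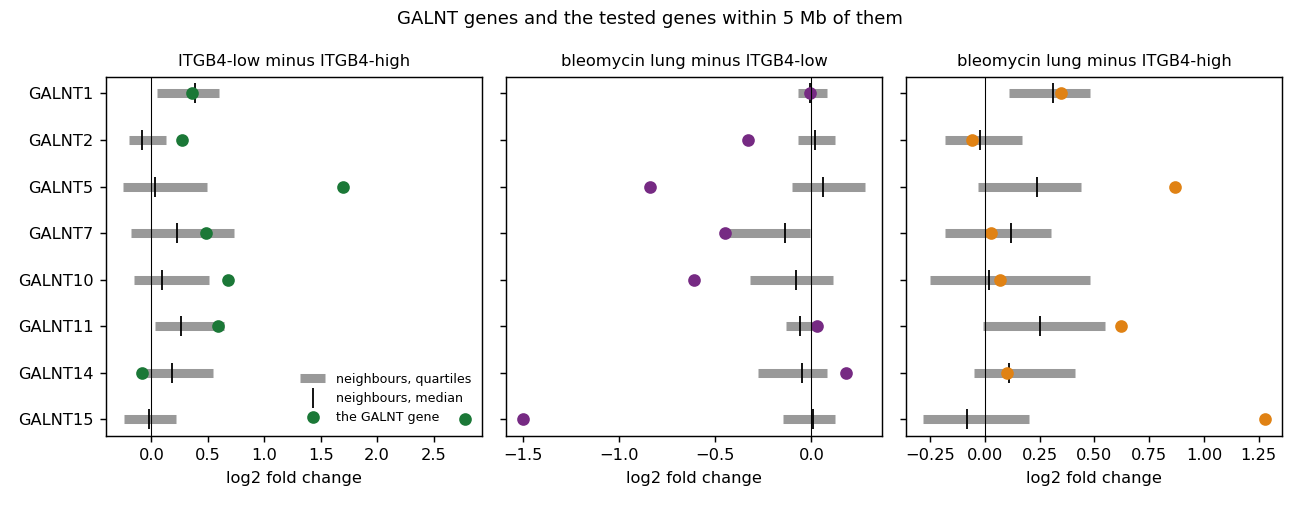
Log2 fold change of each tested GALNT member (point) beside the tested genes within 5 Mb of it (black tick, median; grey bar, lower to upper quartile), in the 3 comparisons. GALNT15, at 2.78, -1.50 and 1.28, lies far outside the grey bar of its 47 neighbours each time, and GALNT1 lies inside its own.

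The genes whose pattern over the 8 libraries was most like that of a member were looked up among 9550 protein-coding genes with a mean of at least 10 CPM in at least 1 group, by Pearson's r of log2(CPM + 0.5) over the 8 libraries. Likeness here is of shape and not of size, and all genes share the same libraries. The r values given are the highest among 9550 genes, and a like spacing of group means alone can bring r near 1. Nothing further is read from them. For GALNT15 they were the collagen COL8A1 (r = 0.9979), the secretory chaperone SCG5 (r = 0.9975) and the ligand WNT10B (r = 0.9967). SCG5 averaged 4.817 CPM in lung-recovered, 22.45 CPM in ITGB4-low and 0.8593 CPM in ITGB4-high cells. COL8A1 had a far flatter course, at 1021 CPM in lung-recovered, 1225 CPM in ITGB4-low and 879.7 CPM in ITGB4-high cells. For GALNT5 they were RCAN1 (r = 0.9979), FERMT2 (r = 0.9971) and ATP2B1 (r = 0.9968), and for GALNT10 they were AJUBA (r = 0.9983), TPX2 (r = 0.9932) and PALLD (r = 0.9928). RCAN1, an inhibitor of calcineurin, averaged 98.56 CPM in lung-recovered, 164.2 CPM in ITGB4-low and 52.19 CPM in ITGB4-high cells.

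The enzymes after, beside and before the GALNT step, and the proteins that carry O-glycans, were taken as 6 lists of 68 genes, of which 43 were tested. The mucins and mucin-like proteins (20 genes) and the reported GALNT substrates (14 genes) are the lists of carrier proteins. In ITGB4-low against ITGB4-high cells 18 rose and 14 fell (74.4% called, beside 56.2% of all genes), and their median log2 fold change was 0.11. In lung-recovered against ITGB4-low cells 12 rose and 7 fell (44.2%, beside 30.1%), with a median of 0.02. In lung-recovered against ITGB4-high cells 17 rose and 7 fell (55.8%, beside 51.2%), with a median of 0.13. The lists were chosen with earlier results of these data known. For that reason nothing is read from these shares or from the counts per list that follow. All calls are edgeR adjusted p-values under 0.05 over all genes tested, and the genes given by name as risen or fallen in the following paragraphs also had libraries that did not overlap between the groups, which the counts do not require.

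Of 3 tested genes for core extension and branching, 2 rose and 0 fell in ITGB4-low against ITGB4-high cells (66.7% called, beside 56.2% of all genes). GCNT1, which adds the branch that makes core 2 O-glycans, had 24.11, 27.66 and 23.99 CPM in lung-recovered, 32.1, 31.84 and 28.61 CPM in ITGB4-low, and 9.09 and 8.027 CPM in ITGB4-high libraries. It rose by 1.85 on the log2 scale (SE 0.10, edgeR adjusted p = 2.75e-12) in ITGB4-low cells, and was 1.56 (SE 0.10, edgeR adjusted p = 6.59e-11) higher in lung-recovered than in ITGB4-high cells. Against ITGB4-low cells it fell by 0.29 on the log2 scale (SE 0.07, edgeR adjusted p = 0.00488) in lung-recovered cells. C1GALT1, the core 1 galactosyltransferase, averaged 105.6 CPM in lung-recovered, 109.5 CPM in ITGB4-low and 98.0 CPM in ITGB4-high cells. It rose by 0.16 (SE 0.05, edgeR adjusted p = 0.00828) in ITGB4-low against ITGB4-high cells, a call lost without ITGB4-high replicate 1 (adjusted p = 0.0813).

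Of 5 tested sialic acid capping genes, 0 rose and 3 fell in ITGB4-low against ITGB4-high cells (60.0% called, beside 56.2% of all genes). In lung-recovered against ITGB4-low cells 2 rose and 1 fell (60.0%, beside 30.1%). Without ITGB4-high replicate 1, 1 gene of this list was called between the dish-grown groups. ST3GAL4, a sialyltransferase acting on terminal galactose, averaged 16.84 ± 0.2349 CPM in lung-recovered (SD, n = 3), 10.45 ± 0.8618 CPM in ITGB4-low (SD, n = 3) and 13.39 ± 1.392 CPM in ITGB4-high cells (SD, n = 2). It rose by 0.69 (SE 0.09, edgeR adjusted p = 4.08e-06) in lung-recovered against ITGB4-low cells. It fell by 0.36 (SE 0.10, edgeR adjusted p = 0.00414) in ITGB4-low against ITGB4-high cells, a call lost without ITGB4-high replicate 2 (adjusted p = 0.0766). ST3GAL2, which caps core 1 chains, rose by 0.35 (SE 0.07, edgeR adjusted p = 0.000313) in lung-recovered against ITGB4-low cells, at 30.0 against 23.49 CPM. ST6GALNAC3, which adds sialic acid to the GalNAc, fell by 0.27 (SE 0.05, edgeR adjusted p = 0.000305) in the same comparison, at 60.65 against 73.42 CPM.

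Of 11 tested genes of sugar donor supply, 6 rose and 1 fell in ITGB4-low against ITGB4-high cells (63.6% called, beside 56.2% of all genes). In lung-recovered against ITGB4-low cells 3 rose and 1 fell (36.4%, beside 30.1%). In lung-recovered against ITGB4-high cells 7 rose and 0 fell (63.6%, beside 51.2%). UAP1, which makes UDP-GlcNAc, averaged 195.0 ± 4.852 CPM in lung-recovered (SD, n = 3), 239.5 ± 3.575 CPM in ITGB4-low (SD, n = 3) and 110.2 ± 3.267 CPM in ITGB4-high cells (SD, n = 2). Its rise in ITGB4-low cells was 1.12 on the log2 scale (SE 0.05, edgeR adjusted p = 1.23e-13), and in lung-recovered against ITGB4-low cells it fell by 0.30 (SE 0.04, edgeR adjusted p = 1.01e-05). GFPT2, which opens the hexosamine pathway, rose by 0.37 (SE 0.04, edgeR adjusted p = 2.39e-06) in lung-recovered against ITGB4-low cells, at 147.7 against 114.6 CPM. NAGK, a salvage kinase for GlcNAc, rose by 0.82 (SE 0.12, edgeR adjusted p = 1.02e-05) in ITGB4-low against ITGB4-high cells, at 10.96 against 6.194 CPM.

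Of 20 mucins and mucin-like proteins only 6 were tested. Of these 6, 4 rose and 0 fell in ITGB4-low against ITGB4-high cells (66.7% called, beside 56.2% of all genes). PODXL, a sialomucin of the cell surface, had 24.95, 26.71 and 25.38 CPM in lung-recovered, 25.45, 28.37 and 27.72 CPM in ITGB4-low, and 5.507 and 4.053 CPM in ITGB4-high libraries. It rose by 2.50 (SE 0.11, edgeR adjusted p = 1.74e-13) in ITGB4-low and by 2.42 (SE 0.11, edgeR adjusted p = 5.67e-13) in lung-recovered cells against ITGB4-high cells. Between the clone 1 groups PODXL differed by -0.08 (SE 0.08, edgeR adjusted p = 0.4418). MUC1, a transmembrane mucin, averaged 4.97 CPM in lung-recovered, 5.947 CPM in ITGB4-low and 2.937 CPM in ITGB4-high cells, and its rise in ITGB4-low cells was 1.02 (SE 0.17, edgeR adjusted p = 4.37e-05). MUC13, another transmembrane mucin, averaged 1.142 CPM in lung-recovered, 0.6573 CPM in ITGB4-low and 0.1163 CPM in ITGB4-high cells. Its log2 fold change in lung-recovered against ITGB4-high cells was 3.26 (SE 0.49, edgeR adjusted p = 1.52e-05). The ITGB4-high level rests on 1 and 5 counts in its libraries, so the size of this rise is uncertain. In lung-recovered against ITGB4-low cells edgeR called 0 of the 6 (beside 30.1% of all genes), DESeq2 called 0 and limma-voom called 1. There 3 had an unadjusted edgeR p under 0.05. In that comparison edgeR called 3 with no filter on low counts, 1 with only the 2 groups fitted, 2 without ITGB4-low replicate 1 and 1 without lung-recovered replicate 1, lung-recovered replicate 2, ITGB4-high replicate 1 or ITGB4-high replicate 2.

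Of 9 tested genes for reported GALNT substrates, 4 rose and 4 fell in ITGB4-low against ITGB4-high cells (88.9% called, beside 56.2% of all genes). In lung-recovered against ITGB4-low cells 5 rose and 2 fell (77.8%, beside 30.1%). FN1, the matrix protein fibronectin, had 2837, 2910 and 2715 CPM in lung-recovered, 5506, 5178 and 5348 CPM in ITGB4-low, and 1949 and 1926 CPM in ITGB4-high libraries. FN1 rose by 1.46 (SE 0.05, edgeR adjusted p = 5.64e-15) in ITGB4-low against ITGB4-high cells and fell by 0.92 (SE 0.04, edgeR adjusted p = 1.84e-12) in lung-recovered against ITGB4-low cells. LRP1, a large endocytic receptor, had 27.6, 31.54 and 27.22 CPM in lung-recovered, 88.06, 89.09 and 91.49 CPM in ITGB4-low, and 31.46 and 29.34 CPM in ITGB4-high libraries. LRP1 rose by 1.56 (SE 0.07, edgeR adjusted p = 1.02e-13) and fell by 1.64 (SE 0.06, edgeR adjusted p = 1.99e-14) in these comparisons. VLDLR, a lipoprotein receptor, averaged 7.604 ± 0.639 CPM in lung-recovered (SD, n = 3), 3.952 ± 0.65 CPM in ITGB4-low (SD, n = 3) and 0.423 ± 0.1182 CPM in ITGB4-high cells (SD, n = 2), and rose in all 3 comparisons. NOTCH1 averaged 90.37 CPM in lung-recovered, 80.14 CPM in ITGB4-low and 139.3 CPM in ITGB4-high cells, and it fell by 0.80 (SE 0.06, edgeR adjusted p = 8.51e-10) in ITGB4-low against ITGB4-high cells. LRP8 fell as well in ITGB4-low against ITGB4-high cells, by 0.70 (SE 0.08, edgeR adjusted p = 8.24e-07), at 36.91 against 59.67 CPM. For GALNT11, reported to act on NOTCH1 and on endocytic receptors, the levels beside these were 25.16 CPM in lung-recovered, 24.68 CPM in ITGB4-low and 16.38 CPM in ITGB4-high cells.

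The death receptor gene TNFRSF10A rose by 0.27 (SE 0.06, edgeR adjusted p = 0.00144) in lung-recovered against ITGB4-low cells, at 45.16 against 37.37 CPM, and TNFRSF10B, another death receptor gene, averaged 272.2 against 262.9 CPM there (edgeR adjusted p = 0.3936). TNFRSF10B fell by 0.14 (SE 0.05, edgeR adjusted p = 0.0115) in ITGB4-low against ITGB4-high cells, at 262.9 against 290.5 CPM. These 2 genes were chosen as the reported substrates of GALNT14, after their values were seen.

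Of 9 tested enzymes that start other kinds of O-glycan, 2 rose and 6 fell in ITGB4-low against ITGB4-high cells (88.9% called, beside 56.2% of all genes). EOGT, which puts GlcNAc on EGF repeats, fell by 0.76 (SE 0.07, edgeR adjusted p = 1.7e-08), at 24.64 against 41.91 CPM, and POGLUT1, which puts glucose on them, fell by 0.60 (SE 0.07, edgeR adjusted p = 2.06e-07), at 23.9 against 36.31 CPM. POMT1, a protein O-mannosyltransferase, rose by 0.57 (SE 0.08, edgeR adjusted p = 4.87e-06), at 21.13 against 14.27 CPM. XYLT2, which starts proteoglycan chains with xylose, fell by 0.33 (SE 0.07, edgeR adjusted p = 0.000411) in lung-recovered against ITGB4-high cells, at 25.97 against 32.61 CPM. It fell likewise by 0.33 (SE 0.07, edgeR adjusted p = 0.000393) in ITGB4-low against ITGB4-high cells, with 25.96 CPM in ITGB4-low cells. In lung-recovered against ITGB4-low cells 2 of the 9 rose and 2 fell (44.4% called, beside 30.1% of all genes). Without lung-recovered replicate 3 or ITGB4-low replicate 3 the calls in this comparison came to 2. EOGT rose there by 0.49 (SE 0.07, edgeR adjusted p = 8.5e-06), at 34.55 against 24.64 CPM, and POGLUT1 averaged 23.93 against 23.9 CPM (edgeR adjusted p = 0.9794).

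**Figure D5:**
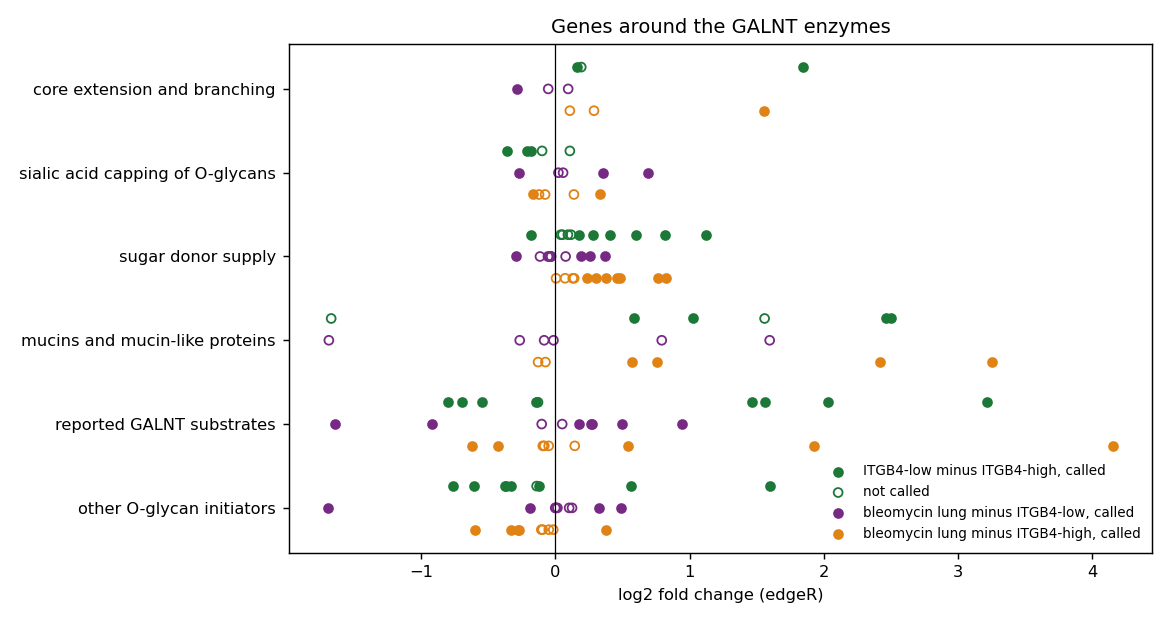
Log2 fold change (edgeR) of the 43 tested genes around the GALNT enzymes in 6 lists, with 1 circle per gene and comparison, filled where the adjusted p was under 0.05. The rightmost filled circle is VLDLR in lung-recovered against ITGB4-high cells, at 4.16, and the mucin list holds 0 filled circles in lung-recovered against ITGB4-low cells.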

How the data were processed

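The authors deposited 1 table of raw counts per gene, with a column for each of the 8 libraries, which were strand-marked and made with oligo dT per the labels' protocols. STAR 2.7.1a and hg38 are named in the submitters' processing notes. For the counter, its strand setting and the annotation, names were not given in the sources used here. Of the identifiers, 58216 matched GENCODE release 29, the source of symbols, lengths and coordinates, and 120 did not. From the counts, edgeR 4.0.16 (R 4.3.3) fitted all libraries with a term per group. The filterByExpr filter kept 15220 genes with 99.93% of counts, TMM scaled the libraries, and quasi-likelihood p-values were Benjamini-Hochberg adjusted across every tested gene, at a threshold of 0.05. The script was tested on simulated data in which far fewer genes changed than were called here. That test does not cover changes this widespread. The comparisons were of lung-recovered, ITGB4-low and ITGB4-high libraries in pairs, grouped by title. Alternatives were upper-quartile scaling, DESeq2 1.42.0, limma-voom (limma 3.58.1), no count filter, a replicate block, 2-group fits and leaving out each library.

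The members and all gene lists were chosen with earlier results of these data known. Named genes were all members and unlisted relatives, and up to 2 called genes per list, comparison and direction with non-overlapping libraries and a mean of at least 1 CPM in a group; values of some listed genes are not reported here. The 3 genes most alike were given for the 3 members of widest span, and promoters for the members with the largest fold change each way. No GALNT protein sequences were used here. P-values measure the spread between these libraries.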

Additional observations from a re-analysis of the deposited data

How the results depend on the processing

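No result changed direction under any alternative where its main value was called. Members' log2 fold changes held within narrow ranges, such as 2.73 to 2.83 for GALNT15 in ITGB4-low against ITGB4-high cells, -1.57 to -1.45 in lung-recovered against ITGB4-low cells and 1.22 to 1.34 in lung-recovered against ITGB4-high cells. For GALNT5 the ranges were 1.66 to 1.76, -0.92 to -0.79 and 0.79 to 0.92. GALNT1 in lung-recovered against ITGB4-low cells ran from -0.05 to 0.01, so it has no direction. No scaling moved the median gene by more than 0.023 on the log2 scale.

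The genes called came to 7400 to 8635, 3532 to 4748 and 6623 to 8145 over all alternatives in the 3 comparisons (8554, 4586 and 7789 as reported). The pathway genes called came to 26 to 34, 14 to 21 and 21 to 29 (32, 19 and 24 as reported). With the replicate block the genes called were 7990, 4146 and 7213, and the pathway genes 31, 18 and 24. Same-numbered libraries did not deviate together (r from -0.075 to 0.04, beside -0.041 to 0.075 for libraries of different numbers), so no pairing by number was seen. The 2 ITGB4-high libraries deviate from their mean as mirror images, so their values are not independent. Whether same-numbered libraries were handled together cannot be told from this check. Of the named genes, POMT1 in lung-recovered against ITGB4-low cells lost its call in 8 alternatives (adjusted p 0.0469 as reported, 0.0688 to 0.178 in those). The cause was not tested.

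Shares of the GALNT sum moved beyond 1 SD in 50 of 126 values. Of the neighbour medians 20 moved beyond 1 SD of the replicates with a 2 Mb window, and 10 did not. The lone library left in a group was assumed to vary like the others. Genes with few counts, such as GALNT3 and GALNT6, could not be compared at this depth.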

Other observations

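The balance between the first sugar and its extension was also read as RNA levels per length. The summed GALNT level over that of C1GALT1, the core 1 galactosyltransferase, was 9.424 ± 0.3133 in lung-recovered libraries (SD, n = 3), 11.49 ± 0.4768 in ITGB4-low libraries (SD, n = 3) and 9.739 ± 0.5159 in ITGB4-high libraries (SD, n = 2). C1GALT1 over GCNT1, the core 2 branching enzyme, was 4.978 ± 0.3931 in lung-recovered, 4.227 ± 0.4313 in ITGB4-low and 13.64 ± 1.488 in ITGB4-high libraries, with the same numbers of libraries. Both ratios were set up after the levels were seen, carry no test, and say nothing of enzyme activity or of the glycans themselves. C1GALT1C1, the chaperone that C1GALT1 needs, stood at 4.176, 3.895 and 3.418 CPM per kb in lung-recovered, ITGB4-low and ITGB4-high cells.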
